A study of Mus musculus with 4 samples.

Results

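A set of 10 transcription regulators of the early nervous system is described across 15 numbered clusters of single cells from mouse embryonic stem cells taken through a cardiac differentiation. The genes are Sox2, Rax, Lhx2, Lhx5, Otx2, Fezf2, Dbx1, Irx3, Foxd1 and Lmo1. They were chosen by name, as 10 of the 1197 genes in the authors' deposited table of cluster markers, and each cluster entry of each of them is given. All 10 members were in the table, with 25 entries in 12 clusters. Of these entries, 20 were higher and 5 were lower inside a cluster than in all other cells. The table lists a gene for a cluster from a fold change of 0.50 on the natural log scale in either direction and a detected share, the percent of cells with the gene, of 25.1% inside or outside the cluster. Percents of genes listed are of the 1197 genes.

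The series held 4 libraries of 10x droplet sequencing, with 1 library in each group: mesoderm without and with a Brm knockout, and the later cardiac stage without and with the knockout. All 4 libraries came from a line with a 3XFLAG tag on BRG1, so the wild-type controls carry it too. Brm is an ATPase of the BAF chromatin remodelling complex and an alternative to BRG1. Clones per genotype are not named in the labels, and the cardiac-stage cells are labelled both as cardiac progenitors and as cardiac myocytes. The table is named for the Brm knockout but names no library, so which libraries' cells were clustered is not known. Neither genotype nor stage was therefore compared here, and no value below has a replicate or a test. Shares of all cells below are of the clustered cells only. Cell numbers and depth per cell are unknown. Clustering used the same expression data, so the members may have helped to define the clusters, and every value below is a description.

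These genes encode DNA-binding factors of several families and 1 cofactor. Sox2 is an HMG-box factor that keeps neural progenitors undifferentiated and is also a core factor of pluripotent cells. Rax, Otx2, Dbx1 and Irx3 are homeodomain factors. Rax acts in the eye field and hypothalamus, Otx2 in the forebrain and midbrain, Dbx1 in progenitor domains of the brain and spinal cord, and Irx3 in the patterning of the posterior forebrain, hindbrain and spinal cord as well as in limb and heart. Lhx2 and Lhx5 join a homeodomain to LIM zinc-binding domains, and Lmo1 has LIM domains alone, so it acts through partners and does not bind DNA itself. Fezf2 is a zinc finger factor of the forebrain. Foxd1 is a forkhead factor of the hypothalamus and retina that also marks stromal cells of the kidney and other mesenchyme. In vertebrate embryos, such factors divide the neural plate into regions under FGF, WNT, BMP and SHH signals.

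The upstream sequences of 5 of the 6 members that were higher together in cluster 4 are shown first, because this cluster listed more of the members than any other. Windows are the 250 bases before a transcription start in RefSeq, build GRCm38.p6, read 5′ to 3′ on the strand of the gene, and the parts outside the exons of GENCODE vM21 are printed. Capitals mark TAAT or its reverse complement ATTA, the core recognised by most homeodomains, where matches may overlap. The Otx2 stretch, chr14:48667645-48667894 on the minus strand, lies in an intron of a longer Otx2 transcript. The Lmo1 stretch, chr7:109175208-109175457 on the minus strand, lies in no annotated gene. For Dbx1, 236 bases are printed, chr7:49636850-49637085 on the minus strand, just before its first exon. For Fezf2, 156 bases are printed, chr14:12345960-12346115 on the minus strand, in an intron of a longer Fezf2 transcript. The Sox2 stretch, chr3:34649745-34649994 on the plus strand, lies in an intron of Sox2ot, a noncoding gene that spans Sox2.
Otx2: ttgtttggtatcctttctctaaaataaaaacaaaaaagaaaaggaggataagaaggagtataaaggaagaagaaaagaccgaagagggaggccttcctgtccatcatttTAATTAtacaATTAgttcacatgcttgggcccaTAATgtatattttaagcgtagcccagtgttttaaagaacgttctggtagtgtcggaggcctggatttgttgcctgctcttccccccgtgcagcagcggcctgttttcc
Lmo1: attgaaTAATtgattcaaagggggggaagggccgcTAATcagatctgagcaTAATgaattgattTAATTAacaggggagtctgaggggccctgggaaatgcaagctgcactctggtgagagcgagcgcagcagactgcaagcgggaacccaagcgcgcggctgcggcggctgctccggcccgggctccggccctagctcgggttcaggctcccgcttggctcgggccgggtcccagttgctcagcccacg
Dbx1: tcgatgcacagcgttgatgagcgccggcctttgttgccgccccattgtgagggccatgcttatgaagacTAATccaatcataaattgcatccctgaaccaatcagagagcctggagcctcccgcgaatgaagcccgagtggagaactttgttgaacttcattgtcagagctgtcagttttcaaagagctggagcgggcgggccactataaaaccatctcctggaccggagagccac
Fezf2: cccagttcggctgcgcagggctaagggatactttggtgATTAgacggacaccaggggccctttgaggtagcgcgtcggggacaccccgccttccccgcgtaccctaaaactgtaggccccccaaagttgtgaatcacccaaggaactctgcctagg
Sox2: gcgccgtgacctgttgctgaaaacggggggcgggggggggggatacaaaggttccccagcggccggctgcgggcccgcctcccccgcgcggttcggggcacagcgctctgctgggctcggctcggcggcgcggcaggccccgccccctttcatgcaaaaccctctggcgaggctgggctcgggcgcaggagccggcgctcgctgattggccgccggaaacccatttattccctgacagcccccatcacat

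The stretches had little in common by this motif. Over the full windows, Lmo1 held 5 matches, a number reached by 5.54% of all 32851 RefSeq windows of this length, and Otx2 held 4, reached by 9.62%. Dbx1 and Fezf2 held 1 match each and Sox2 held 0, where 54.9% of all windows held at least 1. Another of the 4 Otx2 windows, not printed because it lies in exons of other Otx2 transcripts, held 10 matches, reached by 0.341% of windows. The other 2 Otx2 windows held 1 and 2 matches, and the second Lmo1 window held 2, so the counts varied between starts of 1 gene. The Dbx1 match was part of a TAATCC, the form preferred by OTX-type homeodomains, present on either strand in 6.25% of windows and in none of the other 4 shown. The SOX core ACAAT or ATTGT was found 2 times in the Dbx1 window and 1 time in that of Otx2, against 27.7% of all windows with at least 1. CpG dinucleotides numbered 27 in the Sox2 window, 17 in that of Lmo1, 14 in that of Fezf2, 12 in that of Dbx1 and 6 in that of Otx2, against a median of 6 over all windows. In all, 8 members had 13 windows. Those of Lhx2, Irx3 and Foxd1 held no TAAT match. Rax and Lhx5 are only named here. A match is a run of letters and not a shown binding site.

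The members fell into groups by the clusters that listed them. Cluster 4 listed 6 of the 10 members as higher (Sox2, Otx2, Lhx5, Fezf2, Dbx1 and Lmo1), where it listed 1.92% of all genes in the table as higher. Cluster 1 listed 5 (Rax, Lhx2, Lmo1, Fezf2 and Sox2), against 3.93% of all genes, and cluster 12 listed 3 (Lhx5, Fezf2 and Lmo1), against 7.77%. Because the members were chosen with the table's results known, these counts are a description and not an enrichment. Not all of the 10 were higher in a cluster together with other members, and whether the label of neural and forebrain genes held for each was not tested. Irx3 and Foxd1 were higher only in clusters that listed none of the other 8 members as higher. Clusters 3, 8 and 13 had no entry for any member.

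**Figure D1:**
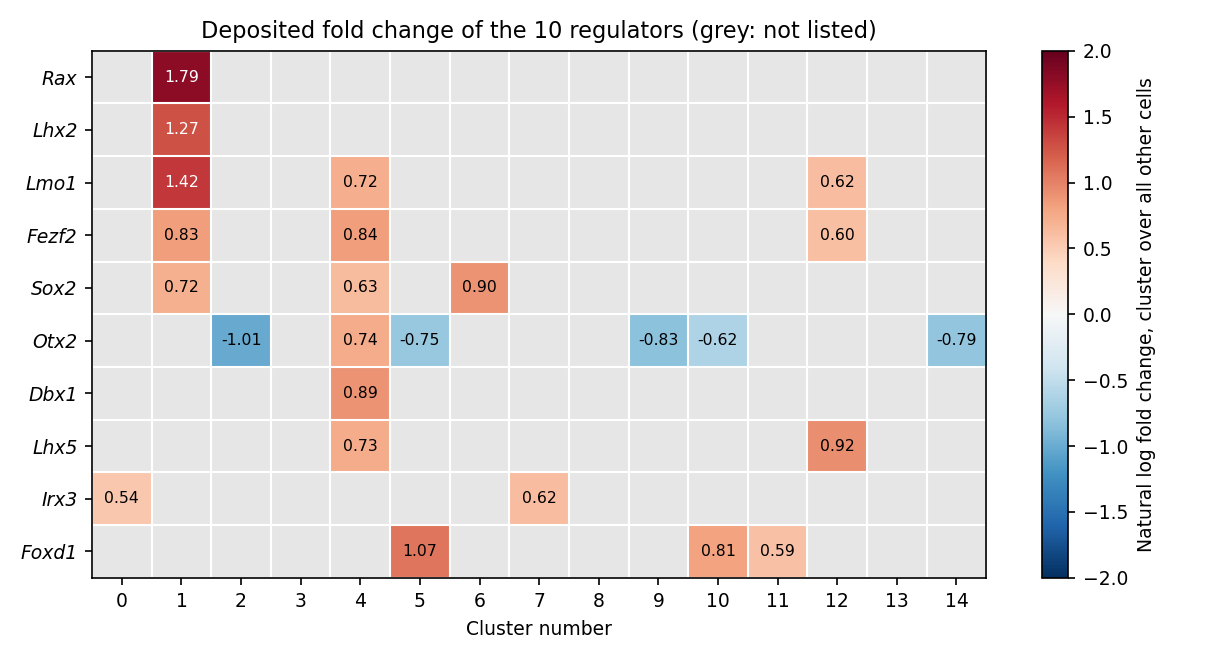
Natural log fold change of each of the 10 members (vertical axis) in each of the 15 clusters (horizontal axis), from the authors' deposited table, with red for higher, blue for lower and grey for not listed. Rax in cluster 1 has the highest value at 1.79, cluster 4 lists 6 members as higher, and Otx2 has all 5 of the lower entries.

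Cell type markers were read beside these clusters. In cluster 12, all 6 neuron markers in the table, of 9 on the list, were higher, with the neuronal tubulin Tubb3 at 17.4-fold and detected in 74.5% of cells inside against 3.4% outside per the authors' deposited table. Cluster 12 is therefore called neuron-like. Clusters 1, 4 and 6 listed none of the 6 neuron markers, none of the 5 pluripotency markers, none of the 4 mesoderm markers and none of the 8 cardiomyocyte markers in the table as higher. The epithelial keratin Krt8 was lower in all 3 per the authors' deposited table, at 3.41-fold in cluster 1, 3.96-fold in cluster 4 and 3.33-fold in cluster 6. Krt8 was also lower in clusters 0, 5, 10, 11 and 12, so this did not set clusters 1, 4 and 6 apart. The keratin Krt18 was lower in clusters 1 and 4, among others, and had no entry in cluster 6. The mesenchyme marker Vim, which neural progenitors also express, was higher in clusters 1 and 6. The endoderm marker Foxa2, which also marks the floor plate, was higher in cluster 6. Another endoderm marker, Apoe, was lower in clusters 4 and 6, at 1.80-fold and 1.81-fold, per the authors' deposited table. Apoe was also lower in clusters 5, 10, 11 and 12. Clusters 1, 4 and 6 are called by number. From the solved sizes, cluster 1 held 13.3% of all cells, cluster 4 held 8.61%, cluster 6 held 7.64% and cluster 12 held 1.60%.

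Rax and Lhx2 were listed for cluster 1 alone. Rax was detected in 71.0% of the cells of cluster 1 against 4.6% of all other cells, and its level was 5.97-fold higher, per the authors' deposited table. It ranked first by fold among the 47 genes that cluster 1 listed as higher. Lhx2, which acts with Rax in the eye field and also in the cortex, was found in 50.9% of its cells against 4.4% outside and was 3.57-fold higher per the authors' deposited table, in rank 4. Outside cluster 1 both genes were detected in fewer than 1 in 20 cells on average. Over all clusters, 13.4% of cells detected Rax and 10.6% detected Lhx2, as derived from the authors' deposited table. Cluster 1 held 70.3% of the cells that detected Rax and 63.9% of those that detected Lhx2, beside its 13.3% of all cells.

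Lmo1 and Fezf2 were each listed as higher for clusters 1, 4 and 12. With the limit on the log scale set to 0.75, only cluster 1 was left for Lmo1 and clusters 1 and 4 for Fezf2, and cluster 12 kept 1 of its 3 members, Lhx5. Lmo1 was detected in 68.7% of cells in cluster 1, 52.7% in cluster 4 and 48.5% in cluster 12, against 12.5%, 16.9% and 19.5% of the cells outside each, per the authors' deposited table. Its folds were 4.12, 2.06 and 1.86 in the same order per the authors' deposited table. Lmo1 thus had its highest share and fold in cluster 1, where it ranked 3 of 47. Fezf2 was detected in 37.5% of cells in cluster 1, 38.6% in cluster 4 and 29.3% in cluster 12, against 6.6%, 8.1% and 10.4% outside, per the authors' deposited table. The folds of Fezf2 were 2.30, 2.31 and 1.83 per the authors' deposited table, so that clusters 1 and 4 were nearly equal. With each level expressed over the mean of all cells, Lmo1 was 1.54-fold higher in cluster 1 than in cluster 4 and 1.59-fold higher than in cluster 12, as derived from the authors' deposited table. Those differences were 0.43 and 0.46 on the natural log scale. The table's smallest listed change of 0.5 is for a cluster against all other cells and does not apply to them. For Fezf2 the same ratios were 1.06 (cluster 4 over cluster 1) and 1.09 (cluster 1 over cluster 12). The 3 clusters together held 81.9% of the cells that detected Fezf2, which was the highest share of any member, and 72.3% of those that detected Lmo1, beside 23.5% of all cells. By share of summed expression, worked out from the folds, the same clusters held 46.8% for Fezf2, below the 57.9% for Lmo1 and the 55.8% for Sox2. In the clusters that did not list them, on average 2.53% of cells detected Fezf2 and 7.23% detected Lmo1.

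Sox2 was higher in clusters 1, 4 and 6. It was detected in 44.9%, 44.5% and 54.4% of their cells, against 14.9%, 16.5% and 16.0% outside, per the authors' deposited table. The folds of Sox2 were 2.05, 1.88 and 2.45 in the same order per the authors' deposited table. Cluster 6, which had the highest of these values, listed 2.51% of all genes as higher and Sox2 as its only member. In levels over the mean of all cells, cluster 6 was 1.23-fold above cluster 1 and 1.26-fold above cluster 4, and clusters 1 and 4 differed by 1.03-fold, as derived from the authors' deposited table. Cells of the 3 clusters made up 73.8% of the cells that detected Sox2 and 29.5% of all cells. The neuron-like cluster 12, which listed Lhx5, Fezf2 and Lmo1, did not list Sox2. In the 12 clusters without a Sox2 entry, 7.04% of cells detected it on average. These include cluster 8, in which the pluripotency factor Pou5f1 was detected in 84.1% of cells against 7.1% outside per the authors' deposited table.

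**Figure D2:**
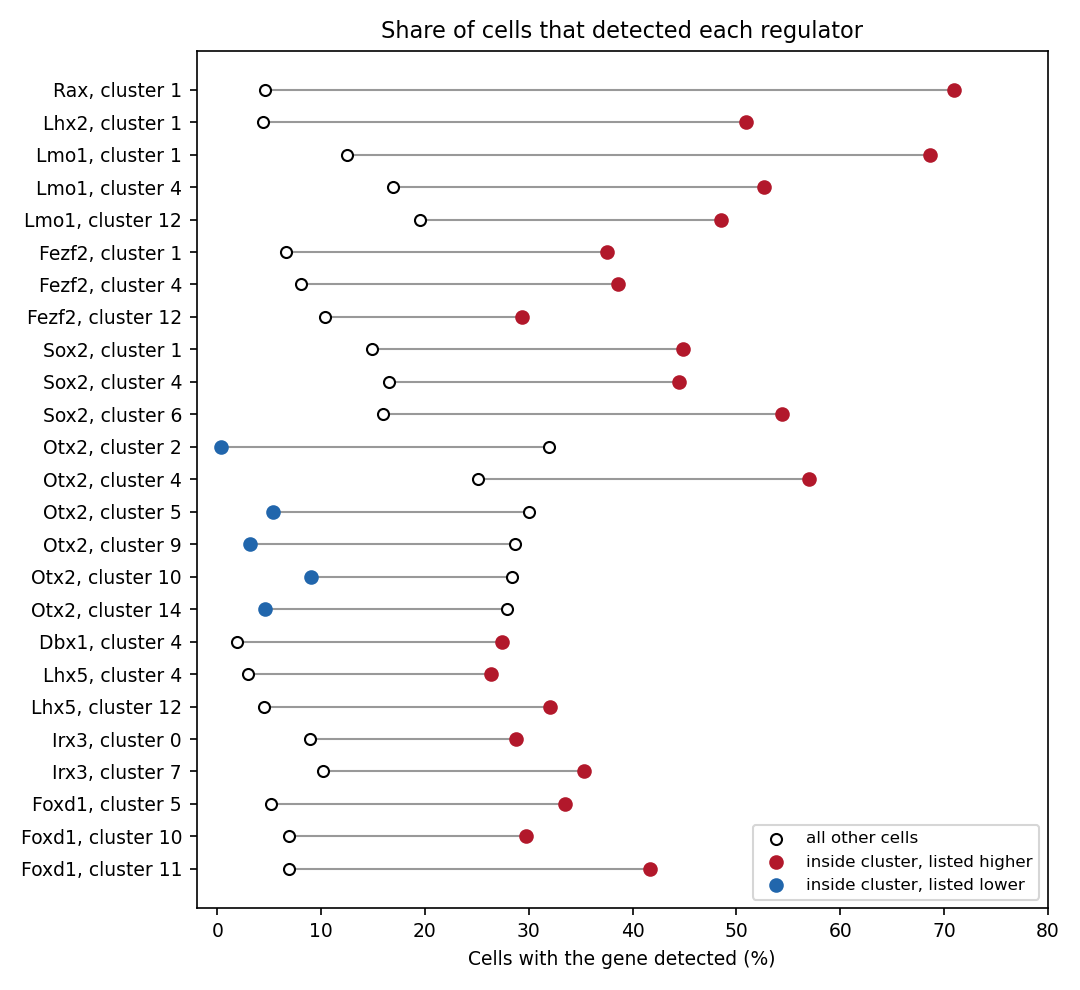
Percent of cells that detected each member (horizontal axis) inside the cluster (filled points) and in all other cells (open points) for each of the 25 entries (vertical axis), from the authors' deposited table. Rax and Lmo1 in cluster 1 reach 71.0% and 68.7%, and the 5 blue points of Otx2 lie between 0.3% and 9.0%.

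Otx2 differed from the other members in its breadth. It was detected in 27.9% of all cells, more than any other member, as derived from the authors' deposited table. In cluster 4 it was detected in 57.0% of cells against 25.1% outside and was 2.09-fold higher per the authors' deposited table. Cluster 4 nevertheless held only 17.6% of the cells that detected Otx2. In the 9 clusters with no Otx2 entry, which include clusters 0, 1, 3, 6, 7 and 8, on average 34.6% of cells detected it. Most of the cells that detected Otx2 thus lay in clusters with no Otx2 entry.

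The 5 lower entries of Otx2 were in clusters that listed muscle, mesenchyme or endoderm markers. Such markers were not particular to these clusters. Cluster 13 listed all 8 cardiomyocyte markers as higher and cluster 11 listed Col1a2 and Col3a1, and neither had an Otx2 entry. The endoderm marker Foxa2 was higher in clusters 3 and 6, also without an Otx2 entry. Cluster 2 listed all 8 cardiomyocyte markers as higher, and there Otx2 was detected in 0.3% of cells against 31.9% outside and was 2.76-fold lower per the authors' deposited table. This was 1 of 10 members listed lower, where cluster 2 listed 25.7% of all genes as lower. In cluster 9, which listed the mesenchyme markers Col1a1 and Vim and the endoderm markers Apoe and Gata6 as higher, 3.1% of cells detected Otx2 against 28.7% outside, and it was 2.29-fold lower per the authors' deposited table (4.01% of all genes were lower there). In cluster 14, which listed 4 of the 5 endoderm markers in the table as higher, 4.6% of cells detected it against 27.9%, and it was 2.21-fold lower per the authors' deposited table (9.19% of all genes). The mesenchyme clusters 5 and 10 had 5.4% and 9.0% of cells with Otx2 against 30.0% and 28.4% outside, and folds of 2.12 and 1.87 lower, per the authors' deposited table (4.26% and 4.09% of all genes). Together these 5 clusters held 27.6% of all cells and 3.14% of the cells that detected Otx2. With folds taken as ratios of means, the level in cluster 4 was 4.85-fold that in cluster 2, as derived from the authors' deposited table. On the same basis it was between 3.52-fold and 4.30-fold that in clusters 5, 9, 10 and 14. Detected shares differed far more, at 57.0% in cluster 4 against 0.3% in cluster 2. The part of any constant behind the deposited logs in this was not tested. The share of cells with Otx2 in the 5 clusters with lower entries ran from 0.3% to 9.0%. Shares of the other members in them are listed only for Foxd1 in clusters 5 and 10, and the part of free RNA in the shares outside a cluster was not tested.

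That only Otx2 had lower entries followed from the table's limits. An entry needed a detected share of at least 25.1% inside or outside the cluster. For the other 9 members, the share outside a cluster that did not list them could not exceed 23.6%, even for a cluster with no detecting cell at all. A lack of lower entries for Sox2, Rax, Lhx2, Lhx5, Fezf2, Dbx1, Irx3, Foxd1 and Lmo1 therefore says nothing of where they were low.

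Dbx1 and Lhx5 were sparse genes that were both higher in cluster 4, and Lhx5 was also higher in cluster 12. Dbx1 was detected in 27.4% of the cells of cluster 4 against 1.9% outside and was 2.44-fold higher per the authors' deposited table, in rank 3 of 23. Lhx5, a LIM factor of the forebrain and of early neurons, was detected in 26.4% of cells in cluster 4 and 32.0% in cluster 12, against 2.9% and 4.5% outside, per the authors' deposited table. Its folds were 2.09 and 2.52 per the authors' deposited table, and in levels over the mean of all cells cluster 12 was 1.29-fold above cluster 4. Over all cells, 4.1% detected Dbx1 and 4.93% detected Lhx5, the lowest shares of the 10 members. Cluster 4 held 57.6% of the cells with Dbx1, but 18.7% of its summed expression as worked out from the fold, and 46.2% of the cells with Lhx5. Cluster 12, with 1.60% of all cells, held 10.4% of the cells with Lhx5. Both shares inside cluster 4 lay just above the table's smallest larger share of 25.1%, so a cluster with a slightly lower share would not be listed.

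Irx3 was higher in clusters 0 and 7. It was detected in 28.8% of cells in cluster 0 and 35.3% in cluster 7, against 8.9% and 10.2% outside, per the authors' deposited table. Its folds were 1.71 and 1.86 per the authors' deposited table, and the value in cluster 0 (0.54 on the natural log scale) was the closest of all 25 entries to the listing limit of 0.50. Each of these clusters listed 1 of the 10 members as higher, against 3.09% of all genes in cluster 0 and 3.34% in cluster 7. Both listed the paraxial mesoderm factor Tcf15 as higher, at 3.62-fold and 2.38-fold per the authors' deposited table. Of the 4 mesoderm markers in the table, cluster 0 listed 1 and cluster 7 listed 2 as higher, the other being Aplnr. Its relative Irx1 was also higher in cluster 7, at 1.75-fold, with 26.6% of cells inside against 5.8% outside per the authors' deposited table. The 2 clusters held 57.9% of the cells that detected Irx3 and 22.5% of all cells.

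Foxd1 was higher in clusters 5, 10 and 11. It was detected in 33.5%, 29.7% and 41.7% of their cells, against 5.2%, 6.9% and 6.9% outside, per the authors' deposited table. The folds were 2.92, 2.24 and 1.8 in the same order per the authors' deposited table, so the cluster with the highest share of detecting cells had the lowest fold. In cluster 11 the median difference of shares was 43.4 percentage points over the 8 genes listed as higher with a natural log fold change of up to 0.75, against 24.7 over such entries of all clusters. Shares in cluster 11 were thus high for the size of the fold over these genes, and the part of depth or of mixed droplets in this was not tested. The collagen genes Col1a2 and Col3a1 were higher in all 3 clusters, with Col3a1 at 4.30-fold, 8.63-fold and 2.21-fold per the authors' deposited table. Of 6 mesenchyme markers in the table, clusters 5, 10 and 11 listed 3, 6 and 2 as higher. Foxd1 was 1 of 10 members higher in each, where 4.09%, 6.85% and 0.835% of all genes were higher. The 3 clusters held 59.4% of the cells that detected Foxd1 and 13.3% of all cells.

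How far members shared cells within a cluster is bounded by their detected shares. In cluster 1, at least 39.7% of cells must have detected both Rax and Lmo1, because the shares of 71.0% and 68.7% sum to more than all cells, as derived from the authors' deposited table. At least 21.9% must have detected both Rax and Lhx2, 19.6% both Lhx2 and Lmo1, and 15.9% both Sox2 and Rax. Of the 10 pairs of members in cluster 1, 7 had such a lower bound above 0. In cluster 4 this was so for 2 of 15 pairs, Otx2 with Lmo1 at 9.7% and Sox2 with Otx2 at 1.5%. None of the 3 pairs in cluster 12 had one. For the remaining pairs the table does not show whether the members were detected in the same cells or in different ones.

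**Figure D3:**
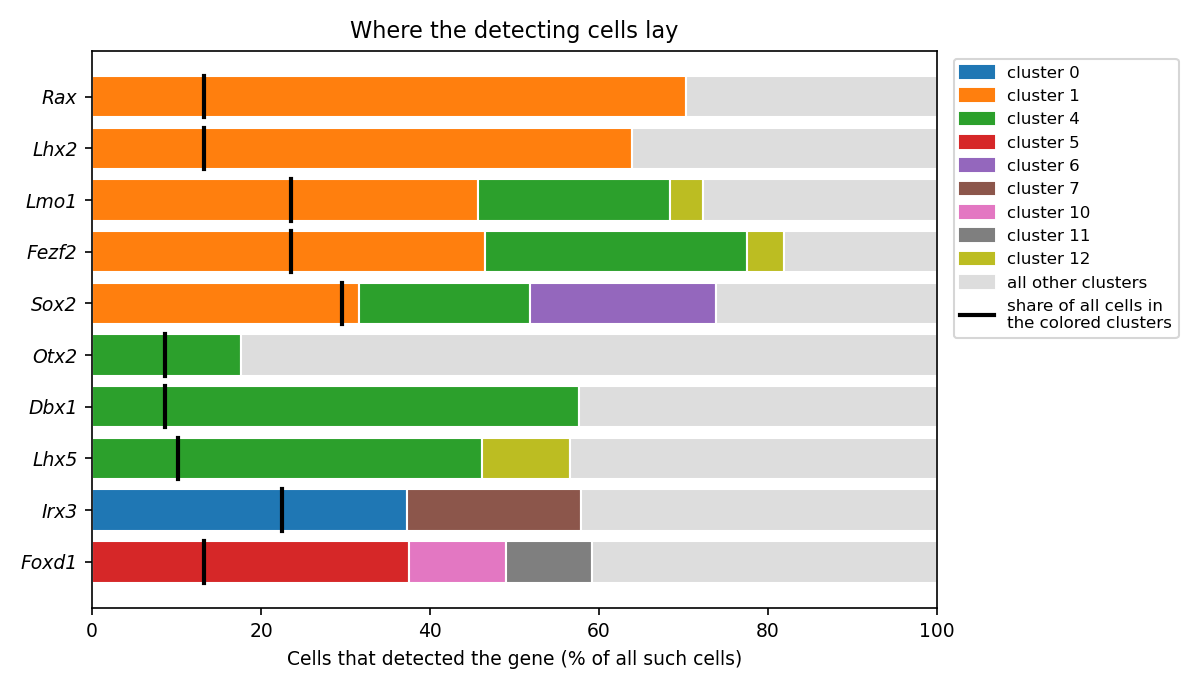
For each member (vertical axis), the percent of all cells that detected it which lay in each cluster that listed it as higher (colored bars) and in all other clusters (grey), worked out from the authors' deposited table, with a black line at the share of all cells that the colored clusters hold. Fezf2 has the highest colored share at 81.9% and Otx2 the lowest at 17.6%.

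Folds were small beside the change in detected shares. For all 20 higher entries, the ratio of the share inside to the share outside exceeded the fold, which was so for 70.1% of the 1305 higher entries of all genes. For Rax in cluster 1 the ratio was 15.4 against a fold of 5.97, and for Dbx1 in cluster 4 it was 14.4 against 2.44, per the authors' deposited table. Otx2 in cluster 4 was nearest to equal, with 2.27 against 2.09 per the authors' deposited table. The median fold of the 20 entries was 2.17, near the 2.10 of all higher entries. The median share outside the cluster was 8.5%, against 15% for all higher entries, and the median share inside was 40.2% against 49.4%. Any constant behind the deposited logs is not named in the sources used here, and its part in this was not tested.

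**Figure D4:**
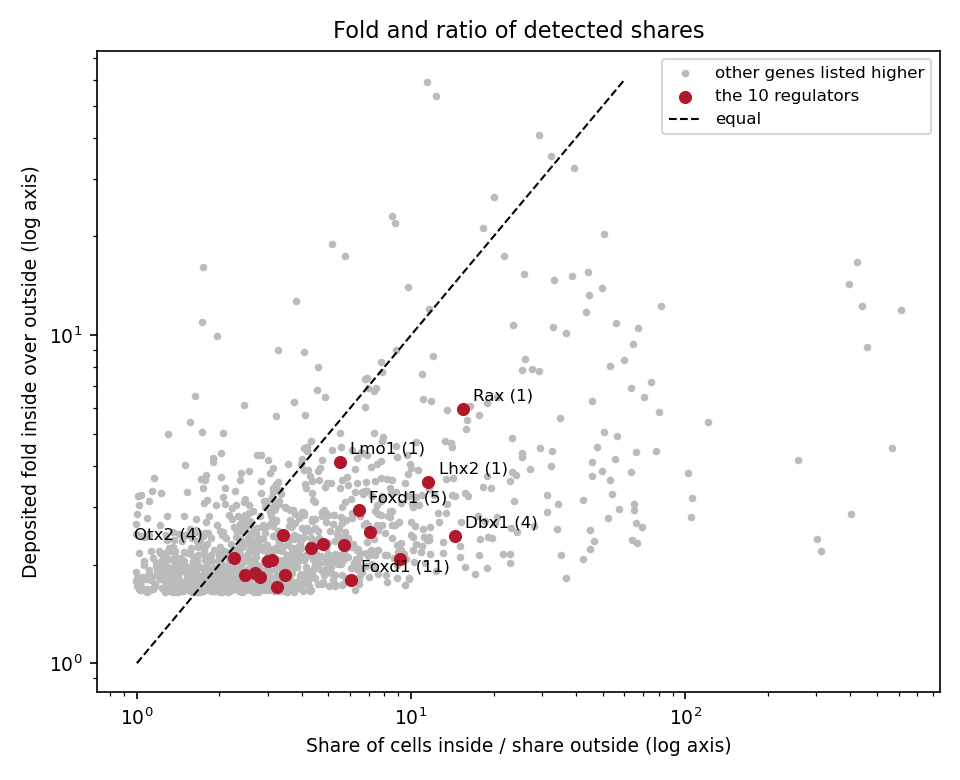
Deposited fold inside over outside (vertical axis, log) against the ratio of the detected share inside to that outside (horizontal axis, log) for the 20 higher entries of the members (red, some named with the cluster number) and for other genes listed as higher (grey), with a dashed line where both are equal. All 20 red points lie below the line, and 5 entries of other genes with a share of 0 outside are not drawn.

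Other regulators and signals of neural patterning were read from 8 lists with 103 genes, of which 29 were in the table. These lists were written with earlier results of these data known, so their counts are a description and not an enrichment. Cluster 1 listed 10 of the 29 as higher and 3 as lower, where 3.93% of all genes were higher and 2.59% lower. Clusters 4 and 6 each listed 5 and 2, where 1.92% and 2.42% of all genes (cluster 4) and 2.51% and 2.17% (cluster 6) were higher and lower. Cluster 12 listed 6 and 2, against 7.77% and 3.84%. The Irx3 clusters were similar in number, with 5 and 4 in cluster 0, against 3.09% and 3.76%, and 6 and 4 in cluster 7, against 3.34% and 2.84%. The remaining 9 clusters listed between 0 and 4 of the 29 as higher, where between 0.835% and 26.2% of all genes were higher. Among them, cluster 11 listed 2, against 0.835%, and cluster 5 listed 4, against 4.09%. Clusters 2 and 14 listed 3 and 1, against 22.7% and 26.2%. Of 13 eye field, hypothalamus and telencephalon factors, 2 were in the table. Nkx2-1, a factor of the ventral forebrain and hypothalamus, was higher in clusters 1, 4 and 12 at 3.05-fold, 2.07-fold and 1.66-fold per the authors' deposited table, the same clusters as Fezf2 and Lmo1. Tbx3, which acts in the hypothalamus among other tissues, was 3.26-fold higher in cluster 1 and was detected in 45.3% of its cells against 3.2% outside per the authors' deposited table.

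The proneural list had 2 of its 10 genes in the table, both higher in cluster 12. Neurog2, which drives progenitors to become neurons, was 6.48-fold higher there and was detected in 49.4% of cells against 0.7% outside per the authors' deposited table, and Onecut2 was 3.23-fold higher. Of the SOX list only Sox4, which is active in newborn neurons, was in the table, at 3.70-fold higher in cluster 12 per the authors' deposited table, and it was also higher in the Foxd1 clusters 5 and 10. Of the 9 LIM genes, 3 were in the table, and none was listed for clusters 1, 4 or 12. Isl1 was higher in clusters 2 and 9, Lhx1 in clusters 3 and 7, at 2.16-fold and 2.04-fold, and Lmo4 in cluster 10, per the authors' deposited table. Of the 24 midbrain, hindbrain and dorsoventral factors, only Foxa2 and Irx1 were in the table, with Foxa2 higher at 2.85-fold for cluster 3 and 1.66-fold for cluster 6 per the authors' deposited table. Zic1, from the list of ZIC, HES and POU factors, was 3.82-fold higher in cluster 10, where Foxd1 was also higher, per the authors' deposited table. That list had 4 of 16 genes in the table, and its other 3, the BMP targets Id1, Id2 and Id3, were all higher in cluster 1 and all lower in clusters 0, 7 and 8.

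Of 16 patterning ligands and antagonists, 10 were in the table. Fgf8, an organiser signal of the forebrain and midbrain, was listed as higher at 1.69-fold for cluster 1 and 2.49-fold for cluster 4 per the authors' deposited table. Fgf10 was 2.67-fold higher in cluster 1 per the authors' deposited table. Beside Sox2, cluster 6 listed Wnt1 at 3.06-fold and Shh at 2.21-fold higher, per the authors' deposited table. The Wnt antagonist Sfrp1 was lower in 8 clusters, from 1.83-fold in cluster 1 to 3.41-fold in cluster 14, per the authors' deposited table. These were clusters 1, 4, 6 and 12 and also 2, 8, 13 and 14, so a lower Sfrp1 did not set apart the clusters of the members. It was higher in the Irx3 clusters 0 and 7 and in the Foxd1 cluster 5. Of 10 structural and binding proteins of neural progenitors, 5 were in the table. Crabp2, which carries retinoic acid, was higher in clusters 1, 4, 11 and 12, from 3.10-fold to 1.68-fold, per the authors' deposited table. Others of this list went the other way. Crabp1, also a retinoic acid carrier, was lower at 3.06-fold for cluster 1, 3.59-fold for cluster 4 and 3.58-fold for cluster 6. Crabp1 was higher at 4.44-fold and 3.06-fold for the Irx3 clusters 0 and 7, per the authors' deposited table. It was also lower in clusters 2, 3, 8, 11, 13 and 14, so a lower Crabp1 did not set apart clusters 1, 4 and 6. Prtg was likewise higher in clusters 0 and 7, at 2.64-fold and 2.55-fold, and lower in clusters 1 and 12, at 1.72-fold and 1.71-fold, per the authors' deposited table. It was also lower in clusters 2, 5, 9 and 10, from 1.73-fold in cluster 9 to 2.28-fold in cluster 10. The imprinted gene Nnat was higher in clusters 1, 6, 10 and 12. It was lower in clusters 0, 2, 3, 7, 8, 9 and 14, at 11.2-fold in cluster 2. Cdh2 was higher in cluster 2 alone and lower in clusters 5, 8, 10 and 14.

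Genes with the most alike pattern were ranked by the distance between natural log fold changes over the 15 clusters, taking 0 where a gene was not listed. Nkx2-1 was nearest to both Fezf2 and Lmo1, at distances of 0.318 and 0.322, followed by Crabp2 at 0.638 and 0.607. Tbx3, Cpne5 and Fgf10 were nearest to both Lhx2 (0.0928, 0.208 and 0.291) and Rax (0.606, 0.722 and 0.804), from 9 genes listed for cluster 1 alone. For Dbx1 the nearest were Fam181b (0.195), Psat1 (0.385) and Fgf8 (0.523). Lhx5 had Cpe (0.234), Kif21a (0.252) and Rnf165 (0.735), and Irx3 had Nr6a1 (0.110), Mogat2 (0.131) and Col23a1 (0.143). Nearest to Foxd1 were Col2a1 (0.335), Foxp1 (0.447) and Col9a1 (0.456), which include 2 cartilage collagens. Sox2 and Otx2 shared their exact set of clusters with no other gene. Their first genes, Celf2 (0.694) for Sox2 and Npm3 (0.995) for Otx2, were farther away than that of any other member. Next came Zfp503 (0.751) and Slit2 (0.957) for Sox2 and Bex2 (1.18) and Hmgb2 (1.2) for Otx2. Genes of the same clusters were ranked for Rax, Lhx2, Irx3 and Foxd1, and all genes for the other members. Distances are therefore not fully comparable between members. The third gene for Fezf2 was Fgf8 (0.684) and that for Lmo1 was Tbx3 (0.981).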

How the data were processed

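Single cells from 4 libraries were profiled with 10x V2 chemistry, with Cell Ranger, Seurat and mm9 named as tools and build, per the submitters' processing notes. Versions, cell filters, doublet treatment and clustering settings are left unstated in the labels and notes. The only table used was the authors' deposited list of markers per cluster (2212 entries). The deposited fold column holds natural log values, per the file header. Its detected shares are fractions given by the authors to 3 decimals and printed as percents. The authors' deposited p-values compare cells, which are not replicates, and served only as a filter in an alternative. A gene is listed from an absolute natural log fold change of 0.50 and a larger share of 25.1%.

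Cluster sizes were solved by least squares from 407 genes listed for 2 or more clusters, since each entry of a gene must imply the same share of detecting cells overall (residual SD 0.0272 percentage points). Shares of detecting cells follow from sizes and detected shares. A level over the mean of all cells follows from fold and size, taking the fold as a ratio of means. Only the solving of sizes was tested on 15 simulated clusters, with a largest size error of 0.00806 percentage points over 1576 genes. The simulation had no constant behind the logs, and the accuracy of levels and shares of expression was not tested. No test between groups was made.

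All entries of the 10 members are given. From each of the 8 gene lists, up to 4 genes with the largest change in a cluster that lists a member were taken, and the report prints some of them and, beside them, genes such as Fgf8 and Shh that were chosen after their values were seen. The 3 genes of most alike pattern per member leave out predicted genes. Members and lists were chosen with earlier results of these data known. Upstream sequences are from RefSeq (GRCm38.p6, a later build than mm9), without the bases after the start and without those in GENCODE vM21 exons. Alternatives were stricter limits of fold, share and p, other ways to solve sizes, shares of expression, and a reference without cluster 2. Calculations used Python 3.11.15, pandas 2.3.3 and numpy 2.4.6, with scipy 1.17.1 for fits and matplotlib 3.10.9 for plots.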

Additional observations from a re-analysis of the deposited data

How the results depend on the processing

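Of the 20 higher and 5 lower entries of the members, 10 and 4 had an absolute natural log fold change of at least 0.75, 4 and 1 of at least 1, and 6 and 0 a larger detected share of at least 50%. Cluster 1 listed 3 members as higher in place of 5 at a fold limit of 1 and also at a share of 50%. Cluster 4 listed 2 in place of 6 at 0.75 and at a share of 50%, and 0 at 1, so its grouping rests on entries of modest fold. Cluster 12 listed 1 in place of 3 at 0.75, and 0 at 1 and at a share of 50%. A deposited adjusted p below 1e-10, or a difference of shares of 20 percentage points, left these counts within 1.5 times. Solving sizes from genes in 3 or more clusters or by least absolute deviation moved no member's share of detecting cells by 0.5 percentage points. The share of summed expression in the clusters listing a member as higher was lower than the share of detecting cells for each of the 10: 55.8% for Sox2, 47.8% for Rax, 35.4% for Lhx2, 20.4% for Lhx5, 16.5% for Otx2, 46.8% for Fezf2, 18.7% for Dbx1, 36.1% for Irx3, 31.0% for Foxd1 and 57.9% for Lmo1. A constant added before logs lowers these shares by construction, and how much was not tested. Without cluster 2 in the reference, Otx2 was 1.92-fold higher in cluster 4 and between 2.04-fold and 2.50-fold lower in clusters 5, 9, 10 and 14, all past 0.5 on the natural log scale as before. With cell numbers and depth unknown, no counting interval was made. No paired analysis was possible because each group had 1 library and the table names none.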

Other observations

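Clusters 3, 8 and 13 had no entry for any of the 10 regulators. Cluster 8, with all 5 of the pluripotency markers in the table higher, listed 0 of the 29 other neural patterning genes in the table as higher and 7 as lower, where 5.51% and 4.26% of all 1197 genes were higher and lower. Cluster 13, with all 8 cardiomyocyte markers higher, listed 0 and 2, against 5.35% and 2.01%. Cluster 3, with all 6 epithelial markers higher, listed 4 as higher and 3 as lower, against 5.26% and 3.01%. Its 4 were the LIM factor Lhx1, the midline factor Foxa2 and the antagonists Cer1 and Dkk1, which also act in the primitive streak, node and early endoderm. Otx2 and Sox2, both known from the epiblast, had no entry in cluster 8, so whether either was detected there in more or fewer cells than the average of the unlisted clusters is not shown by the table.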
